A study of Homo sapiens with 15 samples.

Results

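Of 35 genes of the oxygen response and of glycolysis, a small group of hypoxia-inducible genes was higher in IMR32 neuroblastoma cells induced with doxycycline to express MSX1, while no glycolytic enzyme was called higher than in control cells. The 35 genes were chosen by name as targets of the hypoxia-inducible factors, parts of the oxygen-sensing machinery, or enzymes and transporters of glucose breakdown. The choice was made with earlier results of these data known, so their counts are no independent test. Of 34 other targets of these factors, 6 were called higher and 4 lower in induced than control cells at t = 48. Over all genes, 5.31% were called higher there and 3.29% lower. Of the 35 genes, 34 had a probe set with a single gene symbol in the platform annotation, and 33 passed a filter on low signal, out of 12868 of 19775 genes that passed it. CA9 was not analysed here. BHLHE40, a transcriptional repressor of the hypoxia and clock systems, did not pass the filter: its signal was 1.5 to 21.5 over all 15 arrays.

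IMR32 is an established human neuroblastoma cell line, and all 15 arrays held the line with the inducible MSX1 construct. The groups, each of 3 arrays, were induced cells grown with doxycycline and labelled t = 8, t = 24 and t = 48, control cells grown without doxycycline and labelled t = 48, and cells labelled t = 0. The labels give no unit of time, and name no group grown in low oxygen. Doxycycline itself was not given to cells without the construct, and no control stands at t = 8 or t = 24. Nothing in the labels says whether the cells were 1 clone or whether replicates came from separate cultures, so the p-values cover no more than the spread from array to array within a group, which could be technical.

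Hypoxia-inducible factors (HIFs) are pairs of an oxygen-regulated alpha subunit, such as HIF1A or EPAS1, and a constant partner, ARNT. With oxygen present, the prolyl hydroxylases EGLN1 and EGLN3 modify the alpha subunits, which are then marked by the VHL protein and degraded, so that most of the control of HIF1A acts on the protein and is not read by an RNA array. In low oxygen the pair binds short DNA elements and raises genes for blood vessel growth, for mitophagy and for glycolysis, the conversion of glucose to pyruvate and lactate. Several HIF targets, DDIT4 and NDRG1 among them, are also known to respond to other signals, and neuroblastomas are known for EPAS1 and for a high use of glucose.

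MSX1, the induced homeobox gene, read 184.1, 158.2 and 140.1 in induced cells at t = 8, and 142.2, 171.5 and 182.3 at t = 24. At t = 48 it read 96.9, 67.7 and 84.9 in induced cells, against 46.5, 50.2 and 55.5 in control cells and 115.6, 121.5 and 95.5 at t = 0. Induced cells thus exceeded control cells at t = 48 without overlap (log2 fold change 0.65, adjusted p = 0.0163), but at a level not above that of t = 0. Control cells at t = 48 were called lower than t = 0 (-1.05, adjusted p = 0.0050). In induced cells MSX1 was called higher than t = 0 at t = 24 (0.55, adjusted p = 0.0299). It was not called at t = 8 (0.51, adjusted p = 0.128) or at t = 48 (-0.40, adjusted p = 0.0775). The bioC hybridisation control was weak on 2 arrays, at 94.5 on induced t = 24 replicate 1 and 110.1 on induced t = 48 replicate 3, against 326.1 to 448.7 on the others. Counts without this pair of arrays are therefore given with the main counts. The 18S control read 114 to 183.2 in induced cells and 73.2 to 94.3 in control cells at t = 48, and the ACTB ratio of 3' to 5' signal, a sign of RNA quality, 1.27 to 1.52 and 1.22 to 1.31. On t = 0 replicate 3 the 18S control read 590.5, the highest of all 15 arrays, against 85.9 and 170.8 on the other t = 0 arrays. Without that array 9 members were called at t = 48 over t = 0, in place of 14. Leaving out any 1 array of that comparison gave 7 to 11. Of 10 sympathetic neuroblastoma markers 9 had a probe set, with MYCN at a mean signal of 5155 over all arrays. TH, the first enzyme of catecholamine synthesis, was at 3.28 and did not pass the filter. Of the 8 tested, 3 were called higher in induced than control cells at t = 48: CHGB (log2 fold change 1.21), CHGA (0.90) and PHOX2A (0.70). ISL1 was called lower (-1.20), and the median of the 8 was -0.03. Over all genes 5.31% were called higher there and 3.29% lower.

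Values are MAS5 signals, a linear measure of probe set brightness. Tests ran on log2(signal + 5.16) with limma over all 12868 genes, and a gene was called where its adjusted p was under 0.05. Fold changes are on this scale, which understates those of dim genes. The arrays read RNA from whole cultures, so a change in the share of cells with a transcript and a change in the RNA per cell cannot be told apart.

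Promoter stretches are shown for a pair of members that were higher in induced cells, DDIT4 and ADM, and for a pair of HIF targets that were not called between induced and control cells at t = 48, PGK1 and ANKRD37. Each is the 250 bases before the RefSeq gene start in GRCh38.p14, read on the plus strand. Capitals mark the core letters ACGTG and GCGTG of HIF elements, searched on both strands, where the reverse strand reads CACGT and CACGC, and where CACGTG counts as a pair of overlapping matches. The stretches lie at chr10:72273674-72273923 for DDIT4, chr11:10304823-10305072 for ADM, chrX:78103998-78104247 for PGK1 and chr4:185396591-185396840 for ANKRD37.
DDIT4: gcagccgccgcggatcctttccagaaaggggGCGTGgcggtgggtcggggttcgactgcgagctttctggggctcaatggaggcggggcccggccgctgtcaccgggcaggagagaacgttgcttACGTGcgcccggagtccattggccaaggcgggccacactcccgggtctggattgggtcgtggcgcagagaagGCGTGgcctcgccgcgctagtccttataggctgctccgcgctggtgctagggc
ADM: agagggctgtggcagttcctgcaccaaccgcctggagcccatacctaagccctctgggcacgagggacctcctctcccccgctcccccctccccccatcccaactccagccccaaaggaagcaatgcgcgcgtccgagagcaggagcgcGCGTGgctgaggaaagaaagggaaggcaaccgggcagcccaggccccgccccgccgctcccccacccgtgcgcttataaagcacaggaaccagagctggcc
PGK1: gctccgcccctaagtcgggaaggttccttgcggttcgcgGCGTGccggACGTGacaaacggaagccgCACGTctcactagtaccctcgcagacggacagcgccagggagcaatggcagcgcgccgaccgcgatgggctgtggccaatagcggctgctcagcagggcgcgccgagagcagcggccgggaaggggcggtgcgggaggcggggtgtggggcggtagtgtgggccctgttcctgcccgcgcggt
ANKRD37: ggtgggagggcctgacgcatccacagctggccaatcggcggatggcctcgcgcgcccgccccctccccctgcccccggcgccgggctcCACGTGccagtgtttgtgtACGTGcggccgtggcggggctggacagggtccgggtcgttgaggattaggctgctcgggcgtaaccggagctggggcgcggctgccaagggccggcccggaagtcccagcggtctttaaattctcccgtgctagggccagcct

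DDIT4 held 3 matches, at -219, -125 and -53 from the gene start, and ADM held 1, at -101. PGK1 held 3, at -211, -202 and -183, and ANKRD37 held 3, at -162, -161 and -143. The letters therefore stand in members of either behaviour. RefSeq windows were at hand for 31 of the 35 members, and 27 of these had either motif in at least 1 window (not counting VEGFA, NDRG1, SLC2A3 and BNIP3L, which had no entry). A window-by-window count gave 35 of 57, against 43.2% of all 35116 windows, 18.5% of which had ACGTG and 32.2% GCGTG. Either motif stood in all 3 of the windowed members called higher in induced than control cells at t = 48, and in 22 of the 25 windowed members tested and not called. A match describes letters only and shows no binding.

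Of the 35 members, 11 stand in the list as HIF targets by role, and 9 of these could be tested. In induced against control cells at t = 48, 5 of the 9 rose (NDRG1, DDIT4, ADM, VEGFA and KDM3A) and none fell. Members listed under another role include further known HIF targets, among them PGK1, LDHA and EGLN3, and these 3 were not called in that comparison. EGLN3 was dim there, with a mean signal of 14.8 in induced and 16.2 in control cells, so its lack of a call says little. Over all 33 members tested, 6 were called, 5 higher and 1 lower, where 8.60% of all genes were called (5.31% higher and 3.29% lower). The median log2 fold change of the HIF targets was 0.40 and that of all 33 members 0.10, beside -0.01 over all genes. ADM, EPAS1 and SLC2A3 reached the array median on induced arrays alone, so they passed the filter only through cells in which they were high. Without these 3, 5 of 30 members were called, 4 higher and 1 lower, with a median of 0.03, and 4 of 8 HIF targets, with a median of 0.36. Without the 2 arrays of low bioC signal, 8 members were called, 6 higher and 2 lower.

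**Figure D1:**
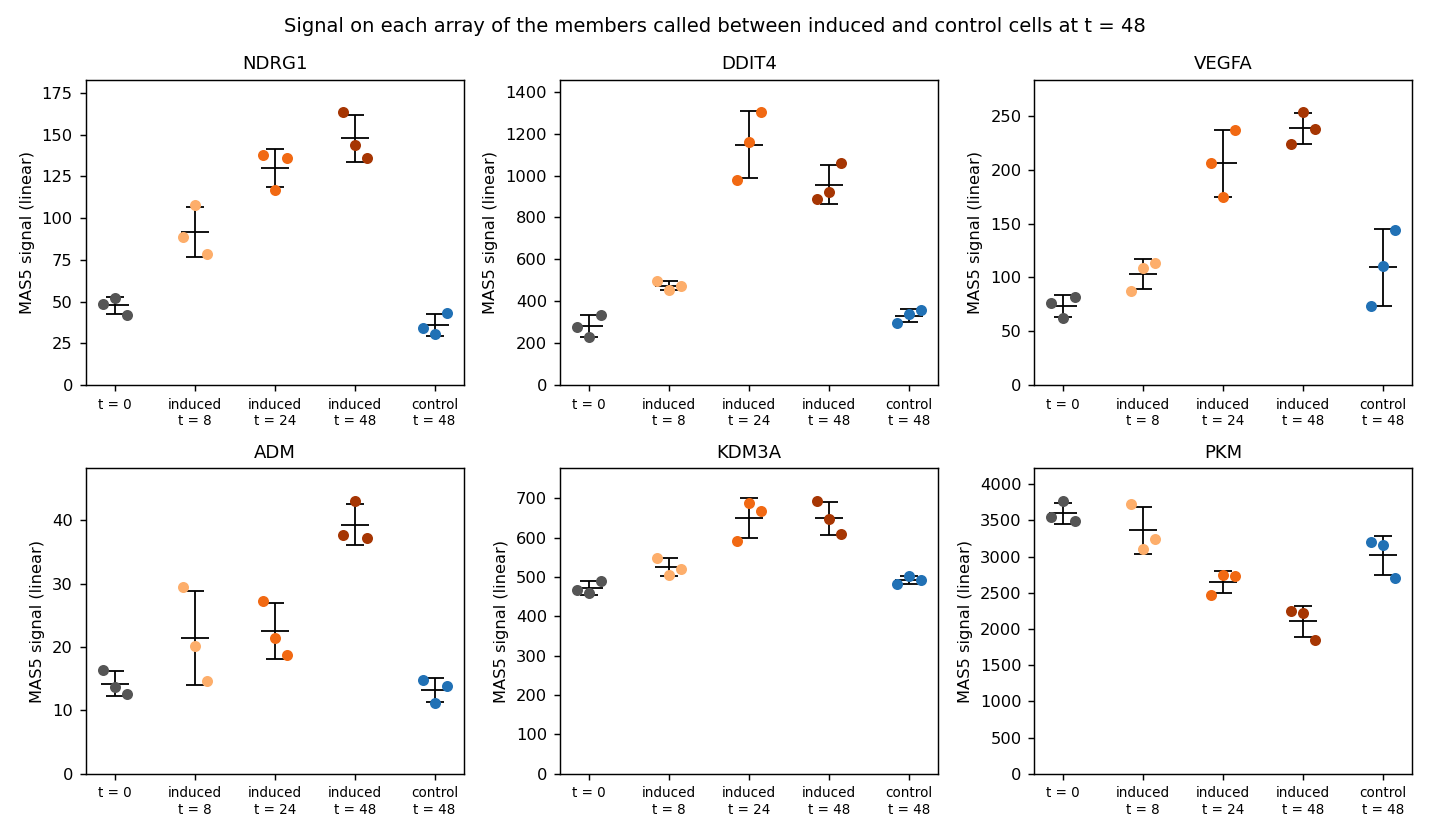
Signal on each array (points, linear MAS5 signal, axes from 0) with the mean and SD of 3 arrays, for the members called between induced and control cells at t = 48. NDRG1, DDIT4, VEGFA, ADM and KDM3A lie above the control cells on every induced t = 48 array, and PKM lies below them.

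NDRG1, a stress-responsive gene named in mouse for its repression by N-myc, had the largest fold change of the members in induced over control cells at t = 48. Its signal was 163.3, 143.9 and 136.3 in induced cells at t = 48, against 34.2, 30.3 and 43.2 in control cells. It stood at 48.6, 52.3 and 42.1 at t = 0, at 88.6, 107.6 and 78.3 in induced cells at t = 8, and at 137.7, 117.0 and 135.8 at t = 24. All induced arrays lay above all t = 0 and control arrays. The log2 fold change over control cells at t = 48 was 1.91 (SE 0.14, adjusted p = 4.01e-06), rank 27 from the top of 12868 genes, and that over t = 0 was 0.87 at t = 8 (adjusted p = 0.0048), 1.36 at t = 24 and 1.53 at t = 48.

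DDIT4, an inhibitor of the growth kinase complex mTORC1, was the other member that rose by t = 8. Its signal was 888.5, 920.1 and 1062.5 in induced cells at t = 48, against 297.1, 338.2 and 357.7 in control cells. It was 278.9, 227.5 and 332.4 at t = 0, then 495.5, 452.4 and 474.0 in induced cells at t = 8, and 980.7, 1161.6 and 1301.6 at t = 24. The highest t = 0 or control array read below the lowest induced one. At t = 48 the log2 fold change over control cells was 1.52 (SE 0.14, adjusted p = 2.62e-05), and over t = 0 it was 0.77 at t = 8 (adjusted p = 0.0117), 2.02 at t = 24 and 1.77 at t = 48. At t = 8, 2 of 33 members were called, where 2.10% of all genes were (1.10% higher and 0.995% lower), and the DDIT4 call there ended without induced t = 8 replicate 1 (adjusted p = 0.0523).

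VEGFA, the main growth factor of blood vessels, had 4 probe sets with signal above the filter, and they did not move alike. On the brightest, 210512_s_at, it read 224.2, 253.2 and 237.9 in induced cells at t = 48, against 73.2, 110.6 and 144.4 in control cells, and 76.3, 62.4 and 81.9 at t = 0. In induced cells it read 87.1, 108.7 and 112.9 at t = 8, and 206.0, 175.0 and 237.2 at t = 24. The control cells varied widely, but none reached the induced arrays of t = 24 or t = 48. On this probe set the log2 fold change was 1.14 over control cells (SE 0.20, adjusted p = 0.0040) and 1.64 over t = 0 at t = 48 (adjusted p = 0.000174).

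The other probe sets of VEGFA gave smaller differences between induced and control cells at t = 48. 212171_x_at had a log2 fold change of 0.41 (signal 110 ± 13.7 and 81.9 ± 14.6, SD, n = 3 each), 211527_x_at 0.58 (62.4, 38.8 and 41.2, against 27.6, 31.5 and 28.9) and 210513_s_at -0.02 (41.5 ± 4.84 and 42.1 ± 1.25). None of these 3 was called there (adjusted p = 0.195, 0.153 and 0.943, over all kept probe sets). Over t = 0, induced cells at t = 48 were called on 212171_x_at (0.61, adjusted p = 0.0361) and 211527_x_at (0.89, adjusted p = 0.0215), and not on 210513_s_at (0.18). Which transcripts each probe set reads was not analysed here.

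**Figure D2:**
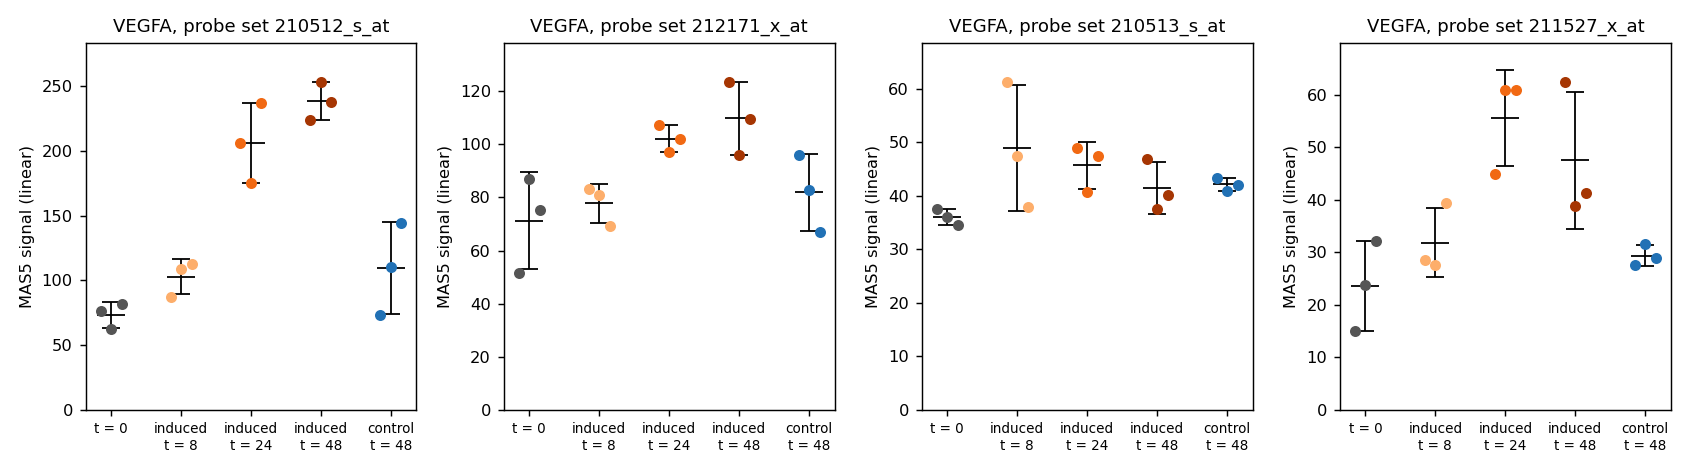
Signal of VEGFA on its 4 probe sets in each group (points are arrays, bars the mean and SD of 3 arrays, linear MAS5 signal, axes from 0). On 210512_s_at the induced t = 24 and t = 48 arrays lie above all others, while on 210513_s_at induced and control cells at t = 48 overlap.

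ADM, the vasodilator peptide adrenomedullin, was called at t = 48 and not before. Its signal was 37.7, 43.0 and 37.2 in induced cells at t = 48, against 14.8, 11.1 and 13.8 in control cells. It read 16.4, 13.7 and 12.5 at t = 0, 29.4, 20.1 and 14.7 in induced cells at t = 8, and 27.3, 21.4 and 18.8 at t = 24. Only the induced t = 48 arrays lay above every other array of this gene. On all 6 t = 0 and control arrays it was below the array median, so ADM passed the filter through induced arrays alone, and the size of its fold change depends on the offset (1.51 with an offset of 1 and 0.66 with an offset of 32 over control cells). The log2 fold change over control cells at t = 48 was 1.28 (SE 0.18, adjusted p = 0.000696) and over induced cells at t = 24 it was 0.69 (adjusted p = 0.0489). The second call ended without any 1 of the 6 arrays other than induced t = 24 replicate 1 (adjusted p up to 0.189), and the differences of t = 8 and t = 24 from t = 0, 0.42 and 0.51, were not called.

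KDM3A, a demethylase of histone H3 and a HIF target, changed little but evenly. It read 693.1, 647.4 and 609.5 in induced cells at t = 48, against 481.9, 501.6 and 493.8 in control cells and 466.6, 459.2 and 491.0 at t = 0. In induced cells it read 549.7, 504.3 and 521.5 at t = 8, and 591.6, 688.4 and 667.1 at t = 24. Every induced array exceeded every t = 0 and control array. The log2 fold change over control cells at t = 48 was 0.40 (SE 0.08, adjusted p = 0.0078), and it was no longer called when arrays were centred on their median (0.36, adjusted p = 0.151) or when only those 6 arrays were fitted (adjusted p = 0.0532).

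BNIP3L, MXI1, BNIP3 and ANKRD37 were not called between induced and control cells at t = 48. BNIP3L, a mitophagy receptor, read 867.5, 875.1 and 809.0 in induced cells at t = 48, against 593.4, 705.1 and 746.4 in control cells and 638.2, 527.6 and 683.0 at t = 0. It read 552.7, 650.4 and 723.9 in induced cells at t = 8, and 899.9, 818.8 and 889.7 at t = 24. It rose over t = 0 at t = 24 (0.50, adjusted p = 0.0210) and at t = 48 (0.47, adjusted p = 0.0205), but its difference from control cells at t = 48 was not called (0.32, adjusted p = 0.133), although the arrays did not overlap. The t = 24 call of BNIP3L ended without t = 0 replicate 2 or induced replicate 1 or 3 (adjusted p up to 0.0799), and the t = 48 call without t = 0 replicate 2 or induced replicate 1 or 2 (up to 0.0783). Its dimmer probe set 221479_s_at gave 0.46 at t = 48 over t = 0 (adjusted p = 0.0195) and 0.05 over control cells.

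MXI1, a partner of MAX that opposes MYC proteins, read 613.0, 604.5 and 575.2 in induced cells at t = 48, against 498.7, 429.1 and 542.2 in control cells and 343.1, 469.4 and 430.4 at t = 0. In induced cells it read 376.4, 333.0 and 354.4 at t = 8, and 508.0, 524.2 and 473.5 at t = 24. It rose by 0.53 over t = 0 at t = 48 (adjusted p = 0.0075), and its difference from control cells, 0.29, was not called (adjusted p = 0.151). The mitophagy receptor BNIP3 differed by 0.20 there (95% interval -0.03 to 0.44) and the ankyrin-repeat protein gene ANKRD37 by 0.03 (-0.25 to 0.30), and neither was called in any comparison with t = 0.

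**Figure D3:**
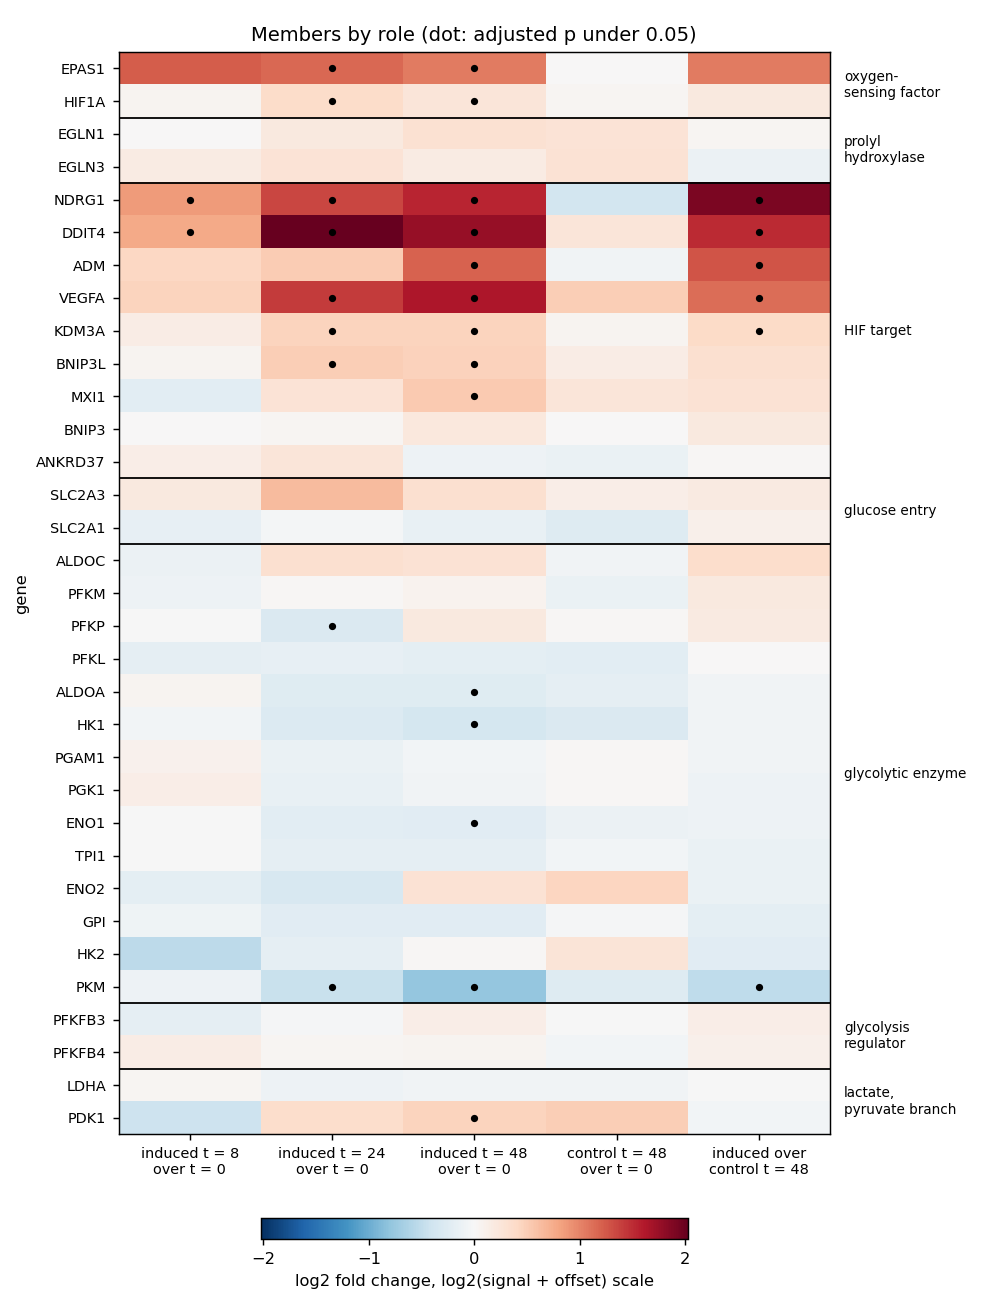
Log2 fold changes of the 33 tested members (rows, grouped by role) in 5 comparisons (columns), red for higher and blue for lower in the group named first, with a dot where the adjusted p was under 0.05. Red and dots gather among the HIF targets and the 2 alpha subunits, and the blue dots lie among the glycolytic enzymes.

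Of the 2 oxygen-regulated alpha subunits, EPAS1 was the dimmer, and it was below the array median on all 6 t = 0 and control arrays, so that it passed the filter through induced arrays alone. It read 23.6, 19.8 and 18.8 in induced cells at t = 48, against 5.4, 3.7 and 15.6 in control cells and 13.2, 5.1 and 5.0 at t = 0. It read 22.0, 32.2 and 18.6 in induced cells at t = 8, and 21.1, 20.3 and 26.7 at t = 24, so each induced array lay above each t = 0 and control array. The log2 fold change over t = 0 was 1.16 at t = 24 (adjusted p = 0.0278) and 1.06 at t = 48 (adjusted p = 0.0308), and each call ended without any 1 of its 6 arrays other than t = 0 replicate 1 (adjusted p up to 0.0976 and 0.101), and both ended with no filter on low signal (adjusted p = 0.0549 and 0.0577). The differences of 1.22 at t = 8 over t = 0 (adjusted p = 0.0654) and of 1.05 over control cells at t = 48 (adjusted p = 0.0507) were not called.

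HIF1A read 3010.6, 2833.3 and 2813.3 in induced cells at t = 48, against 2429.0, 2553.6 and 2530.8 in control cells and 2281.1, 2612.0 and 2401.1 at t = 0. In induced cells it read 2395.6, 2587.5 and 2627.7 at t = 8, and 3011.4, 3213.7 and 3194.0 at t = 24. Its transcript rose over t = 0 by 0.37 at t = 24 (adjusted p = 0.0062) and 0.25 at t = 48 (adjusted p = 0.0335), and its difference from control cells was 0.20 (adjusted p = 0.110). The t = 48 call of HIF1A ended without any 1 of its 6 arrays other than t = 0 replicate 2 (adjusted p up to 0.108). Neither prolyl hydroxylase was called in any comparison: EGLN1, the main regulator of HIF1A, differed by 0.04 between induced and control cells (-0.22 to 0.29), and EGLN3, itself a common HIF target, by -0.12 (-0.75 to 0.50).

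The share of glycolytic enzyme transcripts called between induced and control cells was near that of all genes. Of 14 glycolytic enzymes 0 rose and 1, PKM, fell at t = 48, where 8.60% of all genes were called by limma. An unadjusted p under 0.05 was reached by 4 of the 14. The share of all genes at that looser threshold was not computed, so counts at an unadjusted p cannot be set against the shares called. The median log2 fold change of the 14 enzymes was -0.09. The glucose transporters SLC2A1 and SLC2A3, the regulators PFKFB3 and PFKFB4, and LDHA and PDK1 of the lactate and pyruvate branch were not called, and none of these 6 had an unadjusted p under 0.05.

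PKM, the pyruvate kinase of the last glycolytic step, read 2244.8, 2217.5 and 1852.0 in induced cells at t = 48, against 3197.7, 3154.5 and 2706.4 in control cells. It read 3543.3, 3766.3 and 3492.3 at t = 0, 3729.9, 3111.3 and 3242.2 in induced cells at t = 8, and 2472.9, 2742.1 and 2728.8 at t = 24. The induced t = 48 arrays were the lowest of all 15. The log2 fold change was -0.52 over control cells (SE 0.10, adjusted p = 0.0080), -0.44 over t = 0 at t = 24 and -0.78 over t = 0 at t = 48. The t = 24 call of PKM ended without t = 0 replicate 2 (adjusted p = 0.0554) or induced replicate 1 (adjusted p = 0.0614). A dimmer probe set, 213700_s_at, gave 0.12 over control cells (signal 97.5 ± 23.4 and 88.1 ± 9.76, SD, n = 3 each) and was not called (adjusted p = 0.755), and the mean of both probe sets was not called either (-0.20, adjusted p = 0.304). Splice forms of PKM were not analysed here.

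**Figure D4:**
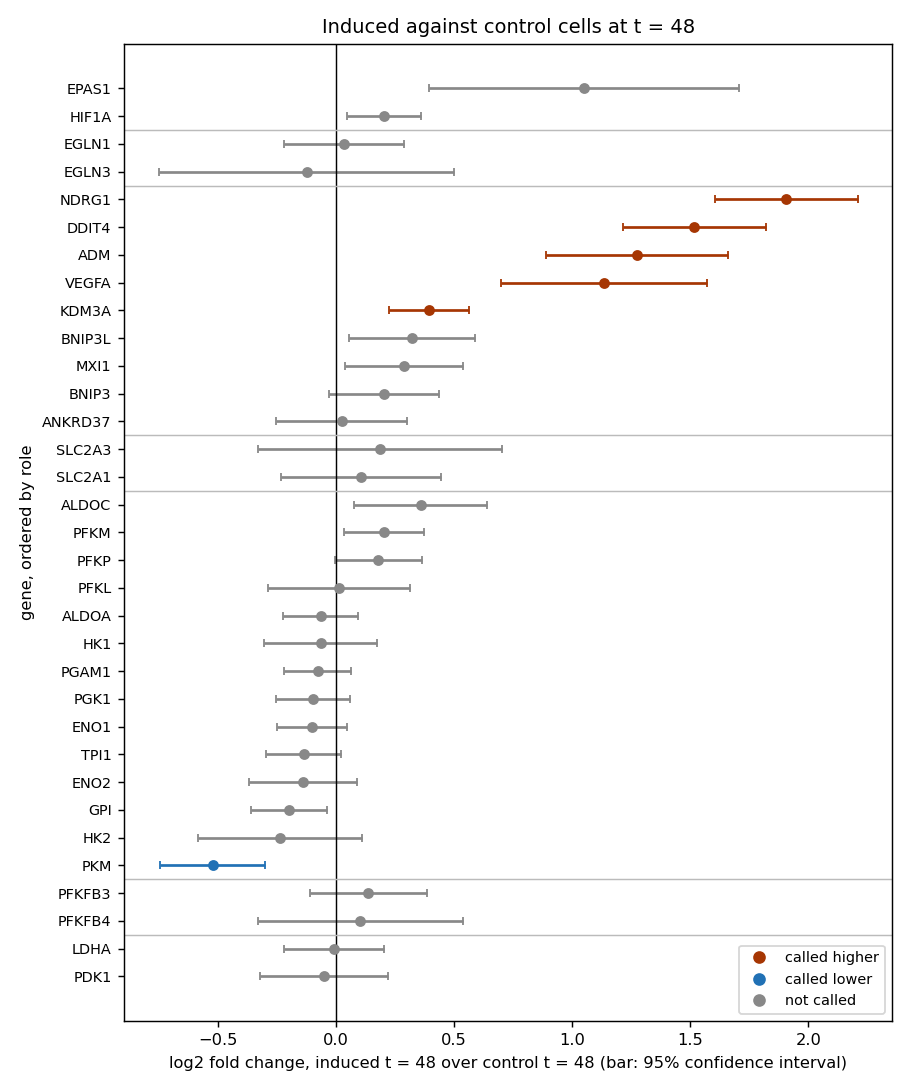
Log2 fold change of each tested member in induced over control cells at t = 48 (points) with its 95% confidence interval (bars), ordered by role. The intervals of NDRG1, DDIT4, ADM and VEGFA lie well above 0, that of PKM lies below 0, and those of most glycolytic enzymes are narrow and include 0.

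For several glycolytic genes the interval bounds the difference closely on the brightest probe set. LDHA, which makes lactate and is a classical HIF target, differed by -0.01 (-0.22 to 0.20) between induced and control cells at t = 48. PGK1 differed by -0.10 (-0.25 to 0.06), ALDOA, an aldolase, by -0.06 (-0.22 to 0.10), and PGAM1, a phosphoglycerate mutase, by -0.08 (-0.22 to 0.07). On the brightest probe set of these 4 genes a rise as large as that of KDM3A (0.40) lies outside the interval. Other probe sets need not move alike. At t = 24 over t = 8 in induced cells, the brightest probe sets of PGK1 and ALDOA were called lower. There 0 of 5 other kept probe sets of PGK1 and 0 of 2 of ALDOA were called the same way. SLC2A1, the basal glucose transporter, differed by 0.11 (-0.23 to 0.44), and PDK1, which inhibits pyruvate dehydrogenase, by -0.05 (-0.32 to 0.22). HK2 (-0.24, -0.58 to 0.11), SLC2A3 (0.19, -0.33 to 0.70) and PFKFB4 (0.10, -0.33 to 0.54) had wider intervals. The other enzymes were HK1 at -0.06, GPI at -0.20, PFKL at 0.01, PFKM at 0.20, PFKP at 0.18, ALDOC at 0.36, TPI1 at -0.14, ENO1 at -0.10 and ENO2 at -0.14, and PFKFB3 stood at 0.14. Not all intervals of these other enzymes include 0. Of the 14 enzymes, 4 had an unadjusted p under 0.05, and those besides PKM are in this last group. None of them was called.

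Over time, the number of called members grew in the induced cells, as did the share of all genes called. Over t = 0, 2 of 33 members were called at t = 8, 9 at t = 24 (7 higher, 2 lower) and 14 at t = 48 (10 higher, 4 lower), where 2.10%, 10.8% and 18.1% of all genes were called. Without ADM, EPAS1 and SLC2A3, which reached the array median on induced arrays alone, 2 of 30 were called at t = 8, both higher. At t = 24 there were then 6 higher and 2 lower, and at t = 48 8 higher and 4 lower. The shares of all genes called higher and lower were 5.96% and 4.87% at t = 24, and 9.93% and 8.20% at t = 48. In control cells at t = 48 over t = 0, limma called 0 of 33, where 0.847% of all genes were called. An unadjusted p under 0.05 was reached there by 8 of 33, and the share of all genes at that threshold was not computed. The comparisons with t = 0 share the t = 0 arrays, so their values stand side by side and are not independent. The largest of the control differences were 0.50 for VEGFA (adjusted p = 0.358), 0.50 for PDK1 (adjusted p = 0.108) and 0.44 for ENO2 (adjusted p = 0.0933). Over the induced course as a whole, a moderated F-test called 15 of 33 members, where 20.2% of all genes were called. ADM and EPAS1 were among these 15. Without the pair of weakly hybridised arrays, the counts over t = 0 were 3, 7 and 10, and 13 in the F-test.

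The members called lower over t = 0 were glycolytic enzymes. PKM and PFKP fell at t = 24, and at t = 48 PKM, HK1 (-0.36), ALDOA (-0.25) and ENO1 (-0.22) fell. The last 3 also read lower in control cells than at t = 0 (-0.29, -0.18 and -0.12, not called), and differed between induced and control cells by -0.06, -0.06 and -0.10. HK1, ALDOA and ENO1 were not called without the weakly hybridised arrays (adjusted p = 0.0738, 0.0783 and 0.0784), nor with quantile scaling. Leaving out 1 array ended the ALDOA call for any of the 6 arrays, the ENO1 call for any but induced replicate 1, and the HK1 call for any but t = 0 replicates 1 and 3.

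Between the induced time points, 8 of 33 members were called at t = 24 over t = 8 (6 higher, 2 lower), where 6.29% of all genes were called (3.46% higher and 2.84% lower). At t = 48 over t = 24, 3 members were called, all higher, where 4.04% of all genes were (2.42% higher and 1.62% lower). The first step held DDIT4 (1.26, adjusted p = 0.000358), VEGFA (0.96), PDK1 (0.79), MXI1 (0.50), HIF1A (0.31) and KDM3A (0.30), with ALDOA (-0.29) and PGK1 (-0.27) lower. Over all genes this step called 445 higher and 365 lower, and 163 and 68 with arrays centred on their median. The count of members was 3 without induced t = 8 replicate 1 or without induced t = 24 replicate 3, 4 without replicate 2 of either group or without induced t = 24 replicate 1, and 5 without the weakly hybridised arrays. DDIT4 and PDK1 were called there with any 1 array left out, and each of the other 6 lost its call without at least 1 of the arrays. The later step held ADM, which passed the filter through induced arrays alone, ENO2 and PFKP. Of these, 1, PFKP, was called without the weakly hybridised arrays, but not with the mean of its kept probe sets.

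PDK1, ENO2 and PFKP had their lowest mean signal in the middle of the induced course. PDK1 read 167.8, 125.7 and 128.7 at t = 0, then 92.9, 109.2 and 106.3 in induced cells at t = 8, 206.6, 175.9 and 162.5 at t = 24 and 171.8, 197.1 and 210.6 at t = 48, against 193.9, 207.2 and 196.9 in control cells at t = 48. Its lowest arrays were those of t = 8, and induced and control cells overlapped at t = 48. It was called at t = 48 over t = 0 (0.45, adjusted p = 0.0266), but not without replicate 2 or 3 of either group (adjusted p up to 0.0971), and the uncalled difference in control cells was 0.50. ENO2, the neuronal enolase used as a clinical marker of neuroblastoma, read 193.5, 156.9 and 188.1 at t = 0, 168.8, 135.8 and 160.6 in induced cells at t = 8, 132.2, 142.4 and 148.7 at t = 24, and 199.3, 237.9 and 228.1 at t = 48, against 251.1, 234.9 and 246.1 in control cells at t = 48. Its step up to t = 48 over t = 24 was 0.63 (adjusted p = 0.0036, and 0.0545 without the weakly hybridised arrays), and the t = 48 arrays of both kinds were above all earlier ones. PFKP, the platelet-type phosphofructokinase, read 858.8, 923.4 and 814.3 at t = 0, 915.1, 899.2 and 769.3 in induced cells at t = 8, 674.0, 729.0 and 711.3 at t = 24 and 1054.7, 983.0 and 941.7 at t = 48, against 851.2, 865.7 and 910.4 in control cells at t = 48. It fell at t = 24 over t = 0 (-0.29, adjusted p = 0.0440) and the step up to t = 48 was 0.49 (adjusted p = 0.0045). Both calls ended with the mean of its kept probe sets, and its other kept probe set was not called the same way in either comparison. The t = 24 call for PFKP ended without any 1 of the 6 arrays compared (adjusted p up to 0.144).

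The rest of the pathway moved in both directions. Of 34 other HIF targets, 6 rose and 4 fell in induced against control cells at t = 48, where 5.31% of all genes were called higher and 3.29% lower, and their median log2 fold change was 0.14. TMEM45A, EDN1 and PFKFB2 reached the array median on induced arrays alone, and without these 3 the count was 4 higher and 4 lower of 31, with a median of 0.11. TMEM45A, a membrane protein gene, had a fitted log2 fold change of 1.19 (signal 21.8 ± 1.73 and 6.70 ± 1.44, SD, n = 3 each) and EDN1, the vasoconstrictor endothelin, of 0.92 (24.8 ± 7.43 and 10.5 ± 2.30), both over control cells with a signal below the array median. PPFIA4, a liprin, rose by 0.89 (59.1 ± 16.3 and 29.6 ± 8.41). CXCR4, a chemokine receptor, fell by 1.39 (54.1 ± 11.6 and 149 ± 10.8), and the other 6 called genes changed by less than these 4. Over t = 0 at t = 48, STC1, a secreted glycoprotein, rose by 1.13, and at t = 8 PLOD2, a lysyl hydroxylase, fell by 0.69. Larger changes over t = 0 were those of CXCR4 (-1.67 at t = 8, -1.41 at t = 48) and PPFIA4 (1.17 and 1.18). Over t = 0, 3 of the 34 were called at t = 8 (1 higher), 10 at t = 24 (5 higher) and 16 at t = 48 (10 higher), where 2.10%, 10.8% and 18.1% of all genes were called. In control cells over t = 0 limma called 0 of the 34. An unadjusted p under 0.05 was reached there by 10, and the share of all genes at that threshold was not computed. Without TMEM45A, EDN1 and PFKFB2, 9 of 31 were called higher and 6 lower at t = 48 over t = 0.

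Between induced and control cells at t = 48, 8.60% of all genes were called. Of 9 HIF pathway regulators 1 was called there: CITED2, a HIF target that competes with HIF for its coactivators, fell by 0.68 (signal 178 ± 9.66 and 287 ± 27.1, SD, n = 3 each, adjusted p = 0.0055). None of 13 other glycolytic and lactate genes was called by limma there, and none had an unadjusted p under 0.05; GAPDH, the glycolytic dehydrogenase, differed by 0.10 (7538 ± 936 and 7016 ± 682). None of 12 enzymes of the citric acid cycle was called, with 2 at an unadjusted p under 0.05 and a median of -0.11. Of 12 targets of the integrated stress response, a second pathway known to raise DDIT4, none rose and 1, PHGDH, fell (-0.42, adjusted p = 0.0433), and over t = 0 none rose and 4 fell at t = 24 (10.8% of all genes were called). At t = 48 over t = 24, 2 of the 12 rose, ASNS (0.49) and CEBPB (0.46), none fell and 12 of 12 were positive, with a median of 0.34 (4.04% of all genes were called). These lists are described by their counts, and were not tested as sets. The part of the integrated stress response in the rise of DDIT4 was not tested.

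Fibroblast marker transcripts also differed between the groups. The summed signal of 9 fibroblast markers was 1717.9 to 1897.8 in induced cells at t = 8, 2535.3 to 2582 at t = 24 and 2110.7 to 2161.3 at t = 48, against 1567.6 to 1686 in control cells at t = 48 and 1289.3 to 1419.9 at t = 0. PDGFRA and COL1A1 were the brightest of the markers in this sum, with mean signals of 1007 and 587 over all arrays. Of the 9, LUM, COL3A1 and PDGFRA were higher in induced than control cells at t = 48 (2.53, 1.06 and 0.40) and none was lower. Over all genes 5.31% were called higher there and 3.29% lower. The log2 fold change was positive for 4 of the 9 markers, with a median of -0.04. LUM reached the array median on induced arrays alone, and no marker was at 0 on any array. Blood and endothelial markers summed to between 44.5 and 89.3 and epithelial markers to between 34.3 and 83 on any array, and the single Schwann cell marker with a probe set, S100B, read 0.1 to 4.8. The part of the fibroblast markers, of 18S signal and of the ACTB ratio in the results on the HIF targets was not tested.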

How the data were processed

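Expression was measured in 15 samples of IMR32 cells in 5 groups of 3. The deposited values are array intensities on a linear scale, made by the authors; MAS5 and GCOS are named in the submitters' processing notes, with neither version nor settings. Each array's mean after trimming 2% of probe sets from each end was 100.01, so arrays were scaled as a whole; their medians were 18.1 to 22.6, and scaling of this kind leaves differences among dim probe sets in place. Of 54675 probe sets, 62 were controls, 41091 had 1 gene symbol, 1801 several and 11721 were not listed; 41037 matched RefSeq (GRCh38.p14) by Entrez identifier. Some genes were not analysed here.

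Before log2, 5.16 (the arrays' mean lower quartile) was added to each signal. The probe set with the highest mean signal stood for each gene and was kept where it reached the array median on at least 3 arrays. Two-sided tests were made in R 4.3.3 by lmFit and eBayes of limma 3.58.1, over 5 group means, with Benjamini-Hochberg adjustment over 12868 genes at 0.05, and were checked on simulated data. Confidence intervals are 95%. Other probe sets were fitted together with all kept probe sets. Motifs were counted with Python 3.11.15 and figures drawn with matplotlib 3.10.9. The number of arrays limits the precision.

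The members, lists and rule for naming genes were chosen with earlier results of these data known. Signals on each array are given for members called at t = 48 in induced against control cells and for those among the 6 largest called changes of another comparison. From the other lists a selection of the called changes is named, and larger called changes may go unnamed. The highest share of equal signals between a pair of arrays was 1.26%, so no array was a copy of another. Counts without genes that reached the array median on no t = 0 or control array were added after seeing the data. Alternatives covered the offset, scaling, filter, probe set, variance model, arrays fitted, replicate block, threshold and arrays left out.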

Additional observations from a re-analysis of the deposited data

How the results depend on the processing

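The 6 members called between induced and control cells at t = 48 numbered 4 to 8 over 14 alternatives and 6 to 7 with 1 array left out, and NDRG1, DDIT4, ADM and VEGFA were called in each of these, except that a filter at 2 times the median left ADM out and that the other VEGFA probe sets were not called. In control cells over t = 0, 0 members were called in all of them. Other counts moved more, and the counts of all genes called moved as well. At t = 8 over t = 0, 2 members became 1 with arrays centred on the median or a threshold of 0.01, 0 with only those arrays fitted, and 1 to 3 with 1 array left out (1 without induced t = 8 replicate 1). Over all genes, 270 calls became 130, 131 and 52 under these settings, in this order, and 172 without that array. At t = 24 over t = 0, 9 became 4, 5 and 3 under these settings, and 5 to 9 with 1 array left out (5 without induced t = 24 replicate 1). All genes called there went from 1394 to 648, 599 and 474, and to 894 without that array. At t = 48 over t = 0, 14 became 8, 7 and 7, 8 with no filter, and 7 to 11 with 1 array left out (7 without induced t = 48 replicate 2, 8 without t = 0 replicate 2, 9 without replicate 3 of either). All genes called there went from 2333 to 1197, 1029 and 1124, and to 1610 with no filter. They numbered 1623 without induced t = 48 replicate 2 and 1604 without t = 0 replicate 2. Without replicate 3 they numbered 1670 (t = 0) and 1501 (induced t = 48). At t = 24 over t = 8, 8 became 2, 2 and 1, 3 with no filter, 13 with a filter at 2 times the median, 15 with a variance trend, 5 without the weakly hybridised arrays, and 3 to 6 with 1 array left out. All genes called there went from 810 to 231, 269 and 90, and to 405 with no filter. They numbered 1032 with the stricter filter, 1132 with the trend and 487 without the weakly hybridised arrays. At t = 48 over t = 24, 3 became 1 with the mean of probe sets, with only those arrays fitted or without the weakly hybridised arrays, and 2 to 3 with 1 array left out. All genes called there went from 520 to 453, 263 and 339 under these settings, in this order. The F-test called 7 after centring, not 15, and 13 to 15 with 1 array left out.

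Of 42 called member results under 583 single settings, 117 calls were lost. Other probe sets of these members were counted apart from the 583, and only on them did values reverse, 6 in number. These were VEGFA at -0.023 (induced over control at t = 48) and -0.068 (t = 24 over t = 8), PKM at 0.12 (over control) and 0.032 (t = 48 over t = 0), and ENO1 at 0.022 and 0.086 (t = 48 over t = 0). With 1 array left out, 81 of 252 were lost. The causes were not tested. Same-numbered replicates showed little shared deviation (correlations of deviations -0.28 to 0.21, over 0.1 in 3 of 30 pairs). These correlations cannot show whether such arrays shared a culture or a batch, and the labels do not say. With a replicate block, members called were 6 at t = 48 in induced against control cells, 2, 8 and 11 over t = 0, and 4 in place of 8 at t = 24 over t = 8. Low signal limits ADM, EPAS1, EGLN3 and SLC2A3.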
